A study of Drosophila melanogaster with 6 samples.

Results

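The nuclear genes of oxidative phosphorylation were examined in circulating hemocytes, the blood cells of Drosophila melanogaster larvae, with and without a mutant isocitrate dehydrogenase. Genes were taken by symbol: those whose array annotation begins with ND- (complex I), Sdh (complex II), UQCR- (complex III), COX (complex IV) or ATPsyn (complex V), together with RFeSP and Cyt-c1 of complex III and cype of complex IV. This gave 76 genes of the 11982 with a probe set of their own, with 32, 7, 8, 15 and 14 genes in complexes I to V. They had 85 probe sets, and the brightest probe set stood for each of the 7 genes that had several. Of 95 symbols in the RefSeq annotation that fit this choice, 76 were covered. Cyt-c-p, which encodes cytochrome c, was sought as well and was not analysed here, nor were SdhA, UQCR-C1, UQCR-C2, ND-23, ND-24, ND-30, ND-49 and the subunits encoded in mitochondrial DNA. Also not analysed were ND-AGGG, ND-B15, ND-MWFE, COX6B, ATPsynG and the copies ND-49L, UQCR-6.4L and COX7CL.

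The Idh-R195H hemocytes carried hml-Gal4, UAS-2xEGFP and UAS-Idh-R195H, and the control hemocytes carried hml-Gal4 and UAS-2xEGFP without the Idh transgene. The driver hml-Gal4 switches on transgenes in hemocytes, UAS-2xEGFP is a green fluorescent reporter shared by both groups, and Idh-R195H corresponds to a mutant form of human IDH1 found in cancers. Each of the 3 Idh-R195H and 3 control samples was a pool of hemocytes from 400 wandering larvae raised at 29 °C and collected on day 7, hybridised to 1 array. The study set the 2 genotypes side by side to learn how the mutant enzyme alters gene expression in these cells.

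Oxidative phosphorylation takes electrons from NADH at complex I and from succinate at complex II, passes them through ubiquinone, complex III and cytochrome c to oxygen at complex IV, and uses the proton gradient built on the way to make ATP at complex V. Several nuclear subunits of these complexes have a second gene copy in Drosophila, marked by an L in the symbol, and many such copies are known for expression in the testis. In the account below, 54 genes are main subunits, 21 are like copies (5, 3, 2, 7 and 4 in complexes I to V) and 1, Sdhaf3, encodes an assembly factor of complex II. None of the 21 like copies is the next protein-coding gene to its parent gene in the RefSeq annotation, and 15 lie on another chromosome or chromosome arm.

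The arrays of the 2 genotypes differed beyond these genes. The Idh probe set had intensities of 11051, 9490 and 9360 in Idh-R195H hemocytes, against 3805, 4006 and 4293 in control hemocytes, which is the direction the labels imply (1.30 ± 0.19 on the log2 scale with SE, limma adjusted p = 0.0319). That call was lost when any array other than control replicate 1 was left out. The 8 plasmatocyte markers were present on all arrays and none passed, but 3 of them (Pxn, crq and eater) were lower and 1 (Sr-CI) was higher without overlap. Over all probe sets, 16.2% were lower and 12.6% higher without overlap, and 3.11% passed at a limma adjusted p below 0.05. The summed intensity of 8 lamellocyte markers, of which 7 passed as higher, was 79498 to 89709 in Idh-R195H and 6820 to 8659 in control hemocytes. For 5 crystal cell markers the sum was 27221 to 42518 in Idh-R195H and 64125 to 66169 in control hemocytes, and 1 of them, fok, passed as lower (adjusted p = 0.0306). The summed intensity of 7 salivary gland markers was 1000 to 4933 in Idh-R195H hemocytes, against 23171 in control replicate 1 and 220346 and 229880 in control replicates 2 and 3. For 3 fat body markers the sums were 5534 to 50017 in Idh-R195H and 39406 to 108887 in control hemocytes, which overlapped. For 5 midgut markers they were 167 to 500 in Idh-R195H hemocytes, against 665, 25836 and 2410 on control replicates 1, 2 and 3. For 4 muscle markers they were 436 to 605.5 in Idh-R195H and 604.7 to 1216 in control hemocytes, which overlapped. In each of these last lists 2 markers were below 100 on all arrays. The part of these other cell types and tissues in the values below was not tested. The 3' to 5' ratio of Act5C, which rises when RNA is degraded or incompletely copied, was 2.28 ± 0.129 on Idh-R195H arrays and 4.78 ± 1.26 on control arrays (SD, n = 3 each). In pooled cells, fewer cells of a type and less RNA per cell cannot be told apart.

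The main subunits of the respiratory chain were bright, and their median differed little between the genotypes. Their median intensity was 4034, 3907 and 3714 on the Idh-R195H arrays and 3886, 3597 and 4187 on the control arrays, so the groups overlapped. Of the 54 genes, 31 had a positive and 23 a negative log2 fold change (Idh-R195H minus control), with a median of 0.03, against -0.07 over all 11982 genes. None of the 76 genes passed in limma at a Benjamini-Hochberg adjusted p below 0.05 taken over all 18769 probe sets, of which 3.11% passed. At an unadjusted p below 0.05, 3 genes were higher and 1 was lower, against 8.40% of all probe sets higher and 11.8% lower. Of the 54 main subunits, 16 were higher on every Idh-R195H array than on any control array, where 12.6% of all probe sets were, and 7 were lower in the same way, where 16.2% were. The balance of signs depended on the scaling: 52 of the 54 main subunits were positive after centring each array on its median. All 54 were positive after scaling on added hybridisation controls. The median of all probe sets was itself 0.15 and 0.86 under these scalings, in that order. The hybridisation controls themselves differed between the groups. Their median log2 shift from their means over all arrays was -0.475 ± 0.110 on Idh-R195H and 0.493 ± 0.061 on control arrays (SD, n = 3 each). This technical difference cannot be told apart from genotype.

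**Figure D1:**
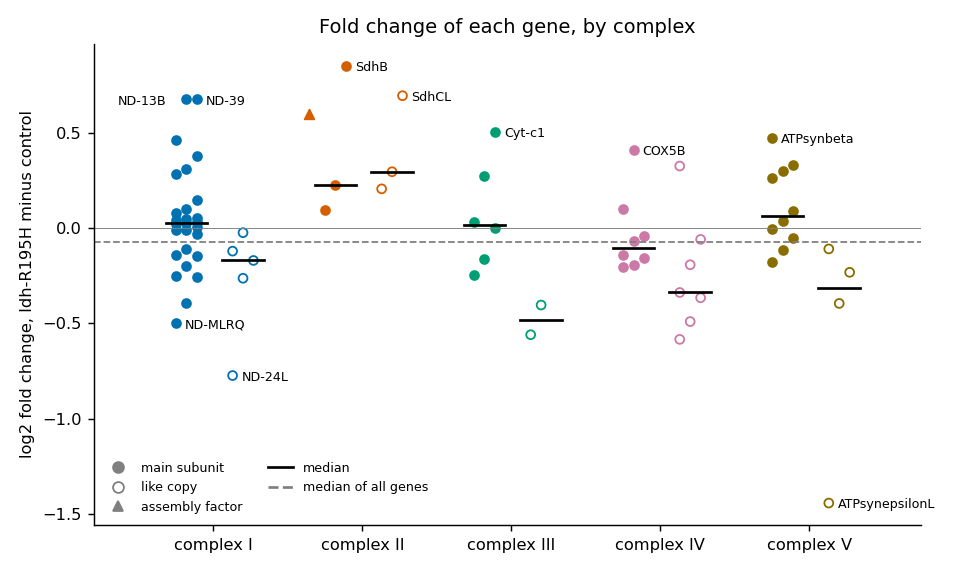
Log2 fold change (Idh-R195H minus control, vertical axis) of each of the 76 genes by complex, with main subunits as filled points, like copies as open points, the assembly factor Sdhaf3 as a triangle, group medians as black bars and the median of all genes as a dashed line. Main subunits of complex II lie highest with a median of 0.23 and those of complex IV lowest with a median of -0.11, and no gene passed the adjusted threshold.

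Complex II, succinate dehydrogenase, which also works in the TCA cycle, held the gene nearest to the threshold. SdhB, the iron-sulfur subunit, had intensities of 1434, 1552 and 1459 in Idh-R195H hemocytes, against 898, 799 and 767 in control hemocytes. The lowest Idh-R195H array exceeded the highest control array. The ratio of 1.81, or 0.85 ± 0.19 on the log2 scale (SE), had a limma adjusted p of 0.0833. It was the 1 gene of the 76 with an adjusted p below 0.1, a level reached by 6.66% of all probe sets. Over the alternative settings its adjusted p ran from 0.00551, with scaling on hybridisation controls, to 0.288.

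The membrane anchors of complex II had smaller differences. SdhC had 3560, 3386 and 3277 in Idh-R195H and 2971, 2731 and 3033 in control hemocytes, which did not overlap (log2 fold change 0.23 ± 0.19, SE; adjusted p = 0.57). SdhD overlapped between the groups, at 2349 ± 161 in Idh-R195H and 2200 ± 185 in control hemocytes (SD, n = 3 each). Sdhaf3, a factor for the assembly of this complex, was at 1729, 1460 and 1566 in Idh-R195H and 895, 886 and 1426 in control hemocytes. The arrays of Sdhaf3 did not overlap, although control replicate 3 came close to the Idh-R195H values (log2 fold change 0.60 ± 0.27, SE; adjusted p = 0.283).

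Complex I, the NADH dehydrogenase, had 27 main subunits with log2 fold changes between -0.50 and 0.68 and a median of 0.03. ND-13B, an accessory subunit, had intensities of 2328, 2421 and 2324 in Idh-R195H hemocytes, against 1450, 1377 and 1605 in control hemocytes (log2 fold change 0.68 ± 0.19, SE; adjusted p = 0.13). ND-39, another accessory subunit, had 2206, 2325 and 1983 in Idh-R195H hemocytes, against 1362, 1142 and 1598 in control hemocytes (0.68 ± 0.22, SE; adjusted p = 0.17). Both genes were about 1.6 times as bright in Idh-R195H hemocytes without overlap of the arrays, and neither passed.

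Subunits of complex I that handle electrons were also higher without overlap in part. ND-75, an iron-sulfur subunit, was at 1187 ± 7.32 in Idh-R195H and 867 ± 123 in control hemocytes (SD, n = 3 each). ND-51, the flavin subunit that binds NADH, was at 2330 ± 85.4 in Idh-R195H and 1802 ± 280 in control hemocytes. Neither passed (adjusted p = 0.28 and 0.386 in limma), and ND-20, an iron-sulfur subunit next to the ubiquinone site, overlapped between the groups with a log2 fold change of 0.04 ± 0.19 (SE). ND-ACP, the mitochondrial acyl carrier protein, had 3 probe sets that did not overlap between the groups, with log2 fold changes of 0.31, 0.37 and 0.43.

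The brightest gene of complex I went the other way. ND-MLRQ, the counterpart of mammalian NDUFA4, which in mammals is placed in complex IV, had intensities of 17015, 15921 and 15505 in Idh-R195H hemocytes, against 22295, 22785 and 23362 in control hemocytes. The groups did not overlap, and the difference of -0.50 ± 0.18 on the log2 scale (SE) did not pass (adjusted p = 0.21). The 86 genes of the whole array with a mean intensity of at least 16000 had a median log2 fold change of -0.64, and 11.6% of them were positive. The value for ND-MLRQ depended on the scaling: it was -0.06 after quantile normalization (adjusted p = 0.932), -0.24 after centring on array medians and 0.47 after scaling on hybridisation controls.

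**Figure D2:**
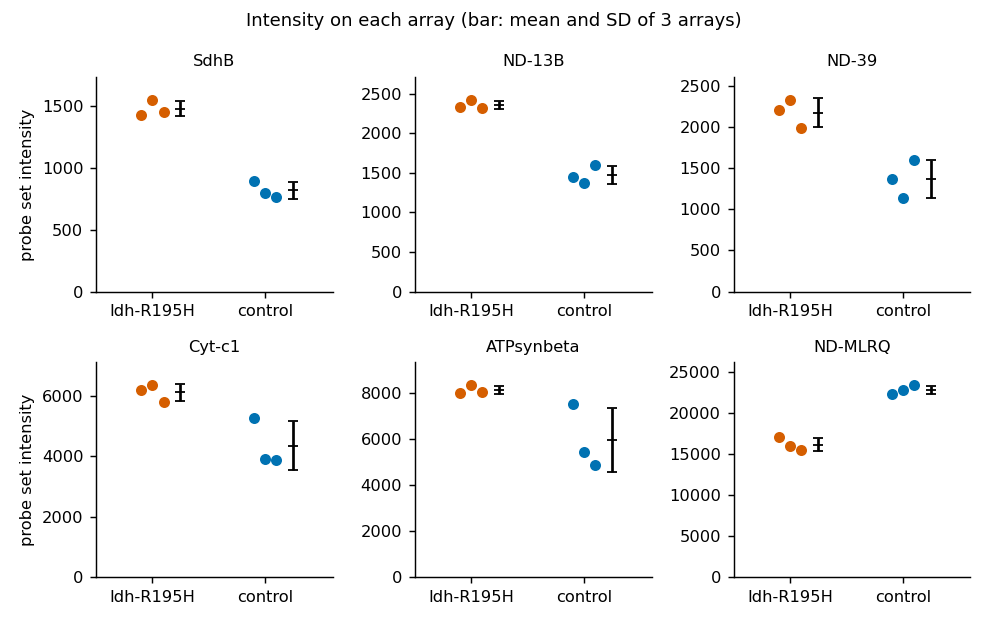
Probe set intensity (vertical axes, from 0) of 6 genes on each of the 3 Idh-R195H arrays (orange, left) and 3 control arrays (blue, right), with the mean and SD beside the points. SdhB, ND-13B, ND-39, Cyt-c1 and ATPsynbeta lie higher and ND-MLRQ lower on every Idh-R195H array than on any control array, and none passed the adjusted threshold.

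In complex III, which passes electrons from ubiquinone to cytochrome c, the cytochrome and iron-sulfur subunits were higher and the small subunits were not. Cyt-c1, the cytochrome subunit that hands electrons to cytochrome c, had intensities of 6185, 6339 and 5806 in Idh-R195H hemocytes, against 5276, 3911 and 3861 in control hemocytes (log2 fold change 0.50 ± 0.22, SE; adjusted p = 0.275). RFeSP, the Rieske iron-sulfur protein, had 2349, 2238 and 2120 in Idh-R195H hemocytes, against 1872, 1676 and 2017 in control hemocytes (0.27 ± 0.19, SE; adjusted p = 0.509). Neither overlapped between the groups and neither passed. A dim probe set of RFeSP, at 41.8 ± 7.71 in Idh-R195H and 43.4 ± 13.1 in control hemocytes, gave a log2 fold change of -0.02.

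The small subunits UQCR-14 and UQCR-Q had log2 fold changes of 0.00 ± 0.19 and 0.03 ± 0.34 (SE). UQCR-6.4, the brightest gene of complex III, had 8326, 7753 and 7466 in Idh-R195H and 8480, 9284 and 10199 in control hemocytes. These arrays did not overlap, but the log2 fold change of -0.25 ± 0.19 (SE; adjusted p = 0.557) became 0.02 after centring on array medians.

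Complex IV, cytochrome c oxidase, was the complex with the lowest median, -0.11 over 8 main subunits, all of them nuclear subunits around a catalytic core that mitochondrial DNA encodes. Of the 8 genes, 6 had a negative log2 fold change. COX5B was the exception in size, with 7659, 7966 and 8525 in Idh-R195H and 6088, 5827 and 6221 in control hemocytes, without overlap (log2 fold change 0.41 ± 0.18, SE; adjusted p = 0.287). The other 7 lay between -0.20 and 0.10. The subunit cype had 8789, 8058 and 8741 in Idh-R195H and 10055, 8585 and 9989 in control hemocytes, which overlapped (-0.16 ± 0.19, SE). COX7C, the brightest gene of the complex, had 10699, 10517 and 10868 in Idh-R195H and 11307, 10017 and 11711 in control hemocytes (-0.04 ± 0.19, SE). COX7B had probe sets of both signs, -0.20 and 0.26, at nearly the same brightness.

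Complex V, ATP synthase, had main subunits of both signs, both in the catalytic head and rotor and outside them. ATPsynbeta, the catalytic subunit, had 8015, 8327 and 8032 in Idh-R195H hemocytes, against 7517, 5446 and 4875 in control hemocytes. The groups did not overlap, control replicate 1 lay near the Idh-R195H arrays, and the log2 fold change was 0.48 ± 0.24 (SE; adjusted p = 0.339). The dimmer probe set of the same gene gave 0.05. ATPsynC, which forms the proton-driven ring, had 9949, 10127 and 10123 in Idh-R195H and 9257, 7121 and 7747 in control hemocytes (0.33 ± 0.20, SE; adjusted p = 0.434). ATPsynD, an accessory subunit, was also higher without overlap, at 7013, 6996 and 6395 in Idh-R195H and 5779, 5194 and 5568 in control hemocytes (0.30 ± 0.19, SE; adjusted p = 0.441). The brightest subunit, ATPsynF, had 12016, 12349 and 11242 in Idh-R195H and 12502, 13026 and 12998 in control hemocytes, without overlap, and its log2 fold change of -0.11 ± 0.18 (SE) became 0.04 after quantile normalization.

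Sorted by role across complexes, the genes that carry redox centres or form the catalytic head and rotor had a higher median log2 fold change than the accessory genes, a difference that was not tested. This group was drawn from textbook roles after the values were seen and holds 12 genes: ND-75, ND-51, ND-20, SdhB, SdhC, SdhD, RFeSP, Cyt-c1, ATPsynC, ATPsynbeta, ATPsyndelta and ATPsyngamma. Of the 12, 11 had a positive log2 fold change, the median was 0.30, and 9 were higher without overlap between the groups. Of all 11982 genes, 5360 were positive. None of the 12 passed (lowest limma adjusted p 0.0833). The 12 include all 3 main subunits of complex II, the complex with the highest median, and none of complex IV, the lowest. Role and complex therefore cannot be fully told apart. Of 42 accessory subunits, 20 were positive, the median was -0.01, 7 were higher without overlap and 7 were lower without overlap. Over all probe sets, 12.6% were higher and 16.2% were lower without overlap. The exception among the 12 was ATPsyngamma, whose probe sets gave -0.18 and 0.16.

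The level of these 12 genes also varied among the control arrays. Their median intensity was 3272, 3153 and 3061 on the Idh-R195H arrays and 3069, 2695 and 2858 on control replicates 1, 2 and 3. Taken gene by gene, the ratio of control replicate 3 to control replicate 1 had a median of 0.84 (range 0.65 to 1.09). For accessory subunits that median was 1.04. The Act5C ratio was 3.72, 4.45 and 6.17 on control replicates 1, 2 and 3, and its part in the difference was not tested. The 6 main subunits with a mean intensity between 1000 and 2000 all had positive values with a median of 0.57, while the 14 between 8000 and 16000 had a median of -0.05 with 5 positive. There was no steady trend between these ranges: the 16 subunits from 2000 to 4000 had a median of 0.05 with 11 positive, and the 14 from 4000 to 8000 a median of 0.15 with 9 positive. Over all genes the medians in the 4 ranges, from dim to bright, were 0.08, 0.06, 0.06 and -0.08.

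**Figure D3:**
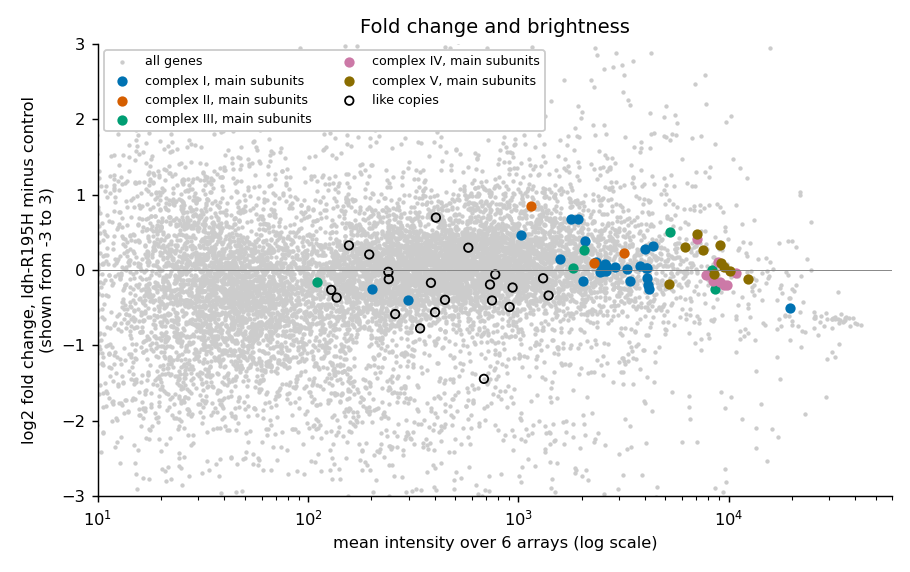
Log2 fold change (Idh-R195H minus control, vertical axis, shown from -3 to 3) against mean intensity over 6 arrays (horizontal log axis) for all genes in grey, main subunits coloured by complex and like copies as open circles. Main subunits sit mostly above an intensity of 1000, and the brightest of them, ND-MLRQ at -0.50, lies where the brightest genes of the array are also mostly below 0.

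The complexes were also compared by the median log2 fold change of their main subunits. It was 0.03 for complex I, 0.23 for complex II, 0.02 for complex III, -0.11 for complex IV and 0.06 for complex V. Of 14 alternatives, 5 shift all complexes alike and could not alter their order. In the other 9, which share their arrays, complex II had the highest and complex IV the lowest median. Complex II rests on 3 genes, and the difference between complexes was not tested. The complexes also differed in brightness. Of the main subunits, 6 of 8 in complex IV and 6 of 10 in complex V had a mean intensity between 8000 and 16000. All genes in that range had a median of -0.08. The 3 genes of complex II lay between 1151 and 3160. The part of brightness in the order of the complexes was not tested.

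**Figure D4:**
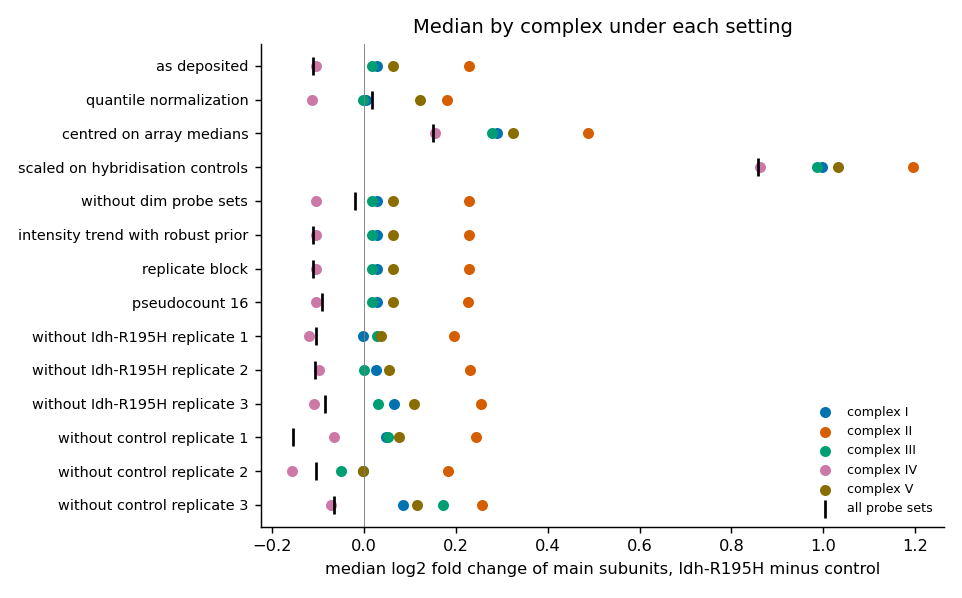
Median log2 fold change of main subunits (horizontal axis, Idh-R195H minus control) of complexes I to V, coloured, under each way of scaling, filtering or leaving out an array (rows), with the median of all probe sets as a black bar. Complex II lies farthest right and complex IV farthest left among the complexes in each row, and scaling on hybridisation controls shifts them all with the median of all probe sets, 0.86.

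The like copies were dimmer than the main subunits, with group medians of 321 in Idh-R195H and 544 in control hemocytes, against 232 in Idh-R195H and 280 in control hemocytes for all genes. They varied strongly among the control arrays in step with each other. All 21 had their lowest control value on control replicate 1 and their highest on control replicate 3, an arrangement found for 22.2% of all probe sets. The value on control replicate 3 was at least 4 times that on control replicate 1 for all 21, with ratios of 4.09 to 17.7 and a median of 7.41, against 12.6% of all probe sets at or above 4 and a median of 1.03 for the main subunits. The limit of 4 was chosen after the values were seen. On the 3 Idh-R195H arrays 20 of the 21 lay wholly between control replicates 1 and 3, a count that was not made over all probe sets. None of the 21 separated the genotypes, where 12.6% of all probe sets were higher and 16.2% lower without overlap. With control values this far apart, overlap says little about the genotypes.

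The spread of single genes shows the size of this variation. SdhCL, the copy of SdhC, had intensities of 390, 433 and 338 in Idh-R195H hemocytes, against 54.3, 253 and 962 in control hemocytes. COX7AL, a copy of COX7A, had 525, 586 and 563 in Idh-R195H hemocytes, against 123, 750 and 2106 in control hemocytes. ATPsynCF6L had 640, 671 and 643 in Idh-R195H hemocytes, against 206, 820 and 2645 in control hemocytes. In each of these genes the Idh-R195H arrays were close together and the control arrays lay on both sides of them. Over the 21 copies the median SD of log2 intensity was 0.18 in Idh-R195H and 1.45 in control hemocytes, against 0.07 and 0.13 for the main subunits and 0.19 and 0.46 for all genes.

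Like copies of every complex shared this arrangement. For complex I, ND-24L had 202, 213 and 170 in Idh-R195H hemocytes, against 97.2, 386 and 976 in control hemocytes. For complex II, SdhBL had 629, 595 and 526 in Idh-R195H hemocytes, against 188, 622 and 906 in control hemocytes. UQCR-11L and UQCR-14L of complex III had means of 560 ± 29.6 and 258 ± 70.3 in Idh-R195H and 936 ± 712 and 544 ± 546 in control hemocytes (SD, n = 3 each). The control SD of UQCR-14L exceeded its control mean.

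In complex IV, COX5BL had 683, 702 and 513 in Idh-R195H hemocytes, against 303, 1002 and 2244 in control hemocytes. COX6AL, a copy of levy, had 197, 207 and 132 in Idh-R195H hemocytes, against 99.3, 292 and 629 in control hemocytes. COX6AL2, another copy of levy, had 106, 120 and 86.2 in Idh-R195H hemocytes, against 54.6, 137 and 316 in control hemocytes. The Idh-R195H arrays of these complex IV copies again lay between control replicates 1 and 3. In complex V, ATPsynbetaL had 325, 275 and 364 in Idh-R195H hemocytes, against 135, 514 and 1071 in control hemocytes. These copies overlapped between the genotypes, as did all 21.

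ATPsynepsilonL was the 1 copy whose Idh-R195H arrays were not wholly inside the control range. Its intensities were 349, 253 and 366 in Idh-R195H hemocytes, against 360, 1052 and 1729 in control hemocytes, a difference of -1.44 ± 0.60 on the log2 scale (SE; adjusted p = 0.254). Without control replicate 1 the log2 fold change was -2.08 with a limma adjusted p of 0.0452. The main gene of this subunit, sun, went the other way, with 537, 553 and 633 in Idh-R195H hemocytes, against 446, 440 and 423 in control hemocytes (0.39 ± 0.19, SE; adjusted p = 0.323), and did not pass.

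The sign of the like copies as a group depended on which control arrays were used. Their median log2 fold change was -0.23 with all arrays, -1.07 without control replicate 1 and 0.47 without control replicate 3. The median of the main subunits was 0.03, 0.05 and 0.08 in the same fits. For all genes of a complex together, the medians were 0.00, 0.30, -0.08, -0.16 and -0.03 in complexes I to V, and without control replicate 3 they were 0.10, 0.81, 0.23, 0.05 and 0.19.

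Most testis marker genes followed the same arrangement. The summed intensity of 10 markers was 9122, 8823 and 7181 on the Idh-R195H arrays and 3908, 12854 and 27990 on control replicates 1, 2 and 3. The ratio of control replicate 3 to control replicate 1 was at least 4 for 8 of the 10, with a median of 7.20, against 12.6% of all probe sets. An exception was mia, with 426, 382 and 384 in Idh-R195H hemocytes, against 395, 392 and 566 in control hemocytes. For aly, Idh-R195H replicate 2 (102) lay below control replicate 1 (105). betaTub85D, the testis beta-tubulin, had 2546, 2505 and 2068 in Idh-R195H hemocytes, against 973, 4371 and 9150 in control hemocytes. The part of testis RNA in the level of the like copies was not tested. No testis marker passed in the comparison of genotypes, and the median log2 fold change of the 10 was -0.43.

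**Figure D5:**
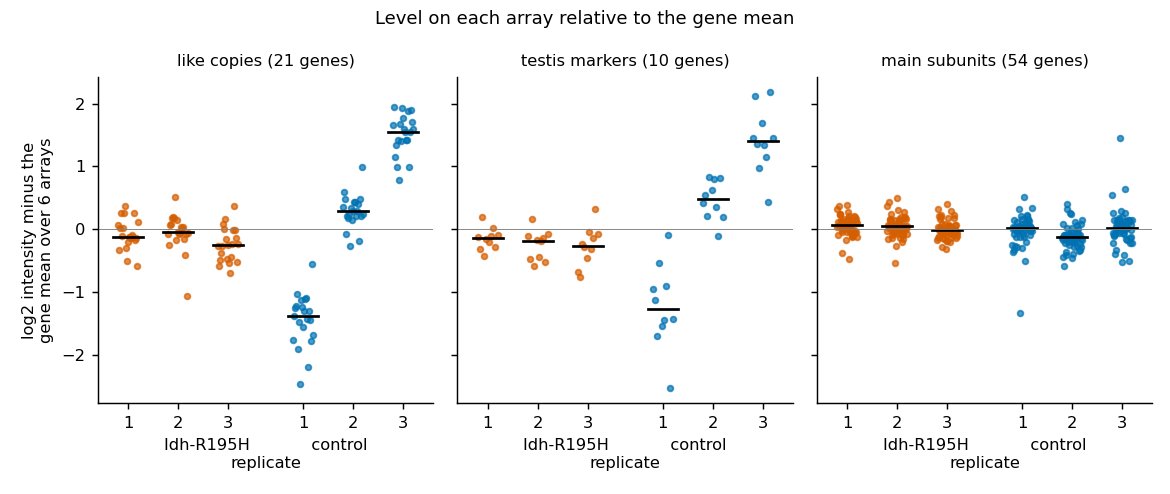
Log2 intensity on each array minus the mean of the same gene over 6 arrays (vertical axis) for the 21 like copies, 10 testis markers and 54 main subunits, with Idh-R195H arrays in orange on the left, control arrays in blue on the right and the median as a black bar. In the first 2 panels the median is lowest on control replicate 1 and highest on control replicate 3, with those of the Idh-R195H arrays between. In the panel of main subunits the medians of all 6 arrays lie near 0.

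Some probe sets outside the named copies shared the arrangement, and those given here were picked after their values were known. Over all probe sets, 12.6% had a ratio of control replicate 3 to control replicate 1 of at least 4. ND-B8, counted as a main subunit of complex I by its symbol, had 178, 117 and 180 in Idh-R195H hemocytes, against 67.2, 203 and 467 in control hemocytes, and it was the 1 main subunit with a ratio of control replicate 3 to control replicate 1 above 4. The dim probe set of COX7C had 278, 327 and 235 in Idh-R195H hemocytes, against 143, 332 and 933 in control hemocytes, while the bright probe set of COX7C did not vary in this way. The gene knon, which encodes a testis form of an ATP synthase subunit and lies outside the symbol rule, had 429, 521 and 307 in Idh-R195H hemocytes, against 127, 447 and 946 in control hemocytes.

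Among genes around the respiratory chain, a single carrier gene passed, and 3.11% of all probe sets did. Of 5 further respiratory subunits, drawn from 9 names, none passed. The alpha subunit gene of ATP synthase, blw, was at 0.27 ± 0.21 on the log2 scale (SE, limma adjusted p = 0.551). Of 15 assembly factors, drawn from 27 names, 10 were positive with a median of 0.10 and none passed. Of all 11982 genes, 5360 were positive. Among the 15, CG8043 went from 524 on control replicate 1 to 2737 on control replicate 3. Surf1, a complex IV assembly factor, was at 830 ± 54.5 in Idh-R195H and 562 ± 37.0 in control hemocytes (SD, n = 3 each; adjusted p = 0.182), and Sirup, an assembly factor of complex II, was at 844 ± 233 in Idh-R195H and 1549 ± 574 in control hemocytes (adjusted p = 0.254). Of 13 genes of mitochondrial biogenesis and DNA maintenance, drawn from 17 names, none passed, and their median was 0.04. The gene srl was among those not analysed. ERR, a nuclear receptor that regulates energy metabolism, was at 0.61 ± 0.19 and mtTFB2, a mitochondrial transcription factor, at 0.42 ± 0.26 (log2 fold change with SE).

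The TCA cycle list, which feeds complexes I and II, had 9 of 11 genes positive with a median of 0.32, and none passed. It was drawn from 19 names, and kdn, Fum1, Mdh2, Pdha, Pdhb and Dld were among those not analysed. The positive genes included Fum4 and mAcon2, which were dim. From control replicate 1 to control replicate 3 they went from 6.53 to 320 and from 77.0 to 351. Ogdh, a subunit of the 2-oxoglutarate dehydrogenase complex, had 2602, 2802 and 2795 in Idh-R195H hemocytes, against 1293, 961 and 600 in control hemocytes. This was a 3.01-fold difference without overlap, with an adjusted p of 0.0657 in limma, and the adjusted p was below 0.05 in 5 of 13 alternatives, among them the fit without control replicate 1 (0.0387). Idh3g, a subunit of the NAD-dependent isocitrate dehydrogenase, was at 0.58 ± 0.22 on the log2 scale (SE; adjusted p = 0.221). Idh3b, another subunit of that enzyme, was lower without overlap, at 1040, 1031 and 1060 in Idh-R195H and 1404, 1385 and 1356 in control hemocytes (-0.40 ± 0.18, SE; adjusted p = 0.285).

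Of 15 mitochondrial carriers and porins, 1 passed, beside 3.11% of all probe sets. Expression of aralar1, the mitochondrial carrier of aspartate and glutamate, rose to 313, 323 and 363 in Idh-R195H hemocytes, against 135, 153 and 160 in control hemocytes. The log2 fold change was 1.15 ± 0.20 (SE, limma adjusted p = 0.0439), and the call was lost in 8 of 13 alternatives, with an adjusted p between 0.00503 and 0.184. Leaving out any array other than control replicate 1 was among those 8. Mpcp1, a phosphate carrier gene, was dim and did not pass, at a log2 fold change of 0.93 ± 0.41 (SE). The median of the 15 was 0.07. For 3 of the 15 (Porin2, Ucp4B and Ucp4C) control replicate 3 was at least 4 times control replicate 1, as for 12.6% of all probe sets.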

How the data were processed

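Hemocyte RNA of 3 Idh-R195H and 3 control samples was hybridised to 1-colour arrays from 6 ug of total RNA, per the labels' protocols. What the authors deposited is 1 linear intensity per probe set and array. Partek 6.0 appears in the submitters' processing notes, with no role given, and the summarisation method is not given in the sources used here. From the values, every array has a trimmed mean of 500.0 (2% left out at each end), so the arrays had been scaled to a common mean. The number of arrays limits the precision. The labels call the samples biological replicates.

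Of 18952 probe sets, 183 array controls were left out. Gene symbols were those of the platform annotation and may be outdated; 1 symbol was given for 13647 probe sets, several for 402 and none for 4720. All 76 genes matched the RefSeq table (Release 6 assembly), which was used for names and gene order. Probe sets with several symbols were not used; 4 carried a symbol of these complexes. Of the 76, 11 rest on a probe set whose name marks probes shared with other transcripts, and all 76 reached a mean intensity of 100 in a group.

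Intensities were tested as log2(value + 1), so fold changes of dim genes are understated, with limma 3.58.1 (R 4.3.3): a fit on genotype alone with moderated two-sided tests, adjusted by Benjamini-Hochberg across 18769 probe sets. The steps were tested on simulated arrays. Named were the 4 largest absolute log2 fold changes and the brightest gene of each complex, RFeSP, Cyt-c1 and cype, and in each neighbouring list the genes that passed and the 2 largest; others were named after their values were seen. Members, lists and tests were chosen with earlier results of these data known. Same-numbered arrays were not paired: their deviations from the group means correlated at 0.03, 0.02 and -0.07 (Pearson, across probe sets). Promoter motifs, though planned, were not analysed here.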

Additional observations from a re-analysis of the deposited data

How the results depend on the processing

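With the deposited scaling 0 of 76 genes passed. The count was 48, all higher, after scaling on hybridisation controls, where 6308 of all probe sets were higher, 3 with an intensity trend and robust prior (SdhB, ND-13B and ND-MLRQ), 2 without dim probe sets (SdhB and ND-13B), 1 with a pseudocount of 16 (SdhB), 1 at an adjusted p below 0.1, and 0 to 1 when leaving out each array (ATPsynepsilonL without control replicate 1). It was 0 with the replicate number as a block (lowest adjusted p 0.247), which took the calls over all probe sets from 584 to 0.

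Medians of complexes I to V were 0.26, 0.56, 0.18, 0.10 and 0.23 after centring on array medians and 0.97, 1.26, 0.89, 0.81 and 0.94 after scaling on hybridisation controls; that of complex II was 0.41 after quantile normalization. Leaving out each array, they ran from -0.037 to 0.10, 0.10 to 0.81, -0.15 to 0.23, -0.20 to 0.047 and -0.049 to 0.19, all highest without control replicate 3. For the main subunits, a group formed after the data were seen, the median was 0.29 after centring and 1.00 after scaling on hybridisation controls.

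Of 36 named genes 20 kept their sign in every alternative. Scaling on hybridisation controls reversed ND-MLRQ (0.47), ND-24L (0.19), UQCR-6.4 (0.72), UQCR-11L (0.56), UQCR-14L (0.41), COX7C (0.93), cype (0.81), COX5BL (0.48), COX6AL (0.38), COX6AL2 (0.60), ATPsynF (0.85), ATPsynbetaL (0.57) and Sirup (0.12). Centring reversed UQCR-6.4 (0.016), COX7C (0.22), cype (0.10) and ATPsynF (0.15), quantile normalization COX7C (0.10) and ATPsynF (0.040), and the dimmest probe set RFeSP (-0.023). Leaving out each array gave -1.66 to 0.0011 for ND-24L, -0.37 to 0.76 for SdhBL, -0.36 to 1.70 for SdhCL, -1.07 to 0.20 for UQCR-11L, -1.32 to 0.26 for UQCR-14L, -0.11 to 0.0069 for COX7C, -1.26 to 0.18 for COX5BL, -1.28 to 0.042 for COX6AL, -1.0 to 0.25 for COX6AL2 and -1.21 to 0.28 for ATPsynbetaL. The cause was not tested. Probe sets gave opposite signs in 3 genes. With 3 arrays a group the SE of a bright subunit was near 0.19, which limits what single genes can show.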
